A study of Mus musculus with 2 samples.

Results

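Costimulatory and checkpoint ligands are the surface molecules with which an antigen-presenting cell tells a T cell how to read the antigen it shows. The 9 genes described here, Cd40, Cd80, Cd86, Cd83, Cd274, Pdcd1lg2, Icosl, Cd200 and Tnfsf9, were chosen by name and are 9 of the 27032 genes measured. They were followed in single-cell transcriptomes of CD11c+ spleen cells from wild-type mice, in 2 samples called replicates 1 and 2. Cells were enriched for CD11c, an integrin chain typical of dendritic cells (DCs), on magnetic beads, which lets other cells through in part, and were captured on the BD Rhapsody system. Each captured transcript carried a unique molecular identifier (UMI), and values are numbers of UMIs. All cells shared the wild-type genotype and no treatment was named. The replicates shared a run, and no source used here says how many mice stand behind either of them, so p-values measure the spread between these 2 samples, which may be technical.

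After a filter on quality, 2928 cells of replicate 1 and 2725 of replicate 2 remained, 5653 of 6393, with a median of 12220 and 11435 UMIs per cell. Cells were sorted into 9 classes by the UMIs of 14 genes, none of them a member. Replicates 1 and 2 held 684 and 570 type 1 conventional DCs (cDC1s, by Clec9a and Xcr1), 556 and 456 DCIR2 cDC2s (by Clec4a4), 484 and 408 CLEC10A cDC2s (by Clec10a and Cd209a) and 138 and 173 mature DCs (by Ccr7 and Fscn1). They further held 293 and 130 macrophages (by Vcam1 and C1qb), 13 and 19 plasmacytoid DCs (pDCs, by Siglech and Ccr9), 65 and 172 B cells, 41 and 159 T cells and 38 and 36 NK cells. A further 616 and 602 cells met no rule. Markers that were not used in the rules were highest in the class they stand for in 10 of 10 cases for macrophages, 7 of 8 for mature DCs, 6 of 8 for cDC1s and pDCs and 8 of 8 for B, T and NK cells. They were highest there in only 1 of 7 cases for DCIR2 cDC2s and 2 of 8 for CLEC10A cDC2s, so these 2 names stand for the rule and not for a marker profile. Of the pDCs, 9 of 13 and 12 of 19 also met a rule of another class.

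CD80 and CD86 bind CD28, which helps a T cell to become activated, and CTLA-4, which restrains it, while ICOSL binds ICOS. PD-L1, encoded by Cd274, and PD-L2, encoded by Pdcd1lg2, bind PD-1 and dampen T cells. CD40 is a receptor of the TNF receptor family through which helper T cells license DCs, and 4-1BBL, encoded by Tnfsf9, stimulates T and NK cells through 4-1BB. CD83 is a classic marker of mature DCs, and CD200 restrains myeloid cells that carry its receptor. DCs that mature raise many of these molecules together and switch on CCR7, which guides them to the T-cell zone.

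On GRCm38 (GENCODE vM21), Cd80, Cd86 and Cd200 lie on chromosome 16, at 38455561 to 38496335 on the plus strand, 36603869 to 36666081 on the minus strand and 45382135 to 45409053 on the minus strand. Cd274, at 29367455 to 29388095, and Pdcd1lg2, at 29410919 to 29471161, are neighbours on the plus strand of chromosome 19 with 22823 bases between them. Icosl lies on chromosome 10 (78069302 to 78083913, plus strand), Cd40 on chromosome 2 (165055627 to 165072948, plus strand), Cd83 on chromosome 13 (43784775 to 43803132, plus strand) and Tnfsf9 on chromosome 17 (57105325 to 57107757, plus strand). Counts covered exons and introns. An annotated gene on the other strand overlaps Cd274 (AC119228.1), Pdcd1lg2 (A930007I19Rik) and Tnfsf9 (Gm11110), and since it is not stated that counting used strand, reads of these pairs cannot be told apart.

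Promoter windows of RefSeq (GRCm38.p6, 250 bases before to 50 after the start) were at hand for 5 of the 9 members. The windows shown are those of the 3 members that were lower in cDC1s than in cDC2s and for which a window exists. They are Cd274 (chr19:29367188-29367487), Pdcd1lg2 (chr19:29410669-29410968) and Icosl (chr10:78069118-78069417), all on the plus strand, written 5′ to 3′, and capitals mark the 50 bases from the RefSeq start on.
Cd274: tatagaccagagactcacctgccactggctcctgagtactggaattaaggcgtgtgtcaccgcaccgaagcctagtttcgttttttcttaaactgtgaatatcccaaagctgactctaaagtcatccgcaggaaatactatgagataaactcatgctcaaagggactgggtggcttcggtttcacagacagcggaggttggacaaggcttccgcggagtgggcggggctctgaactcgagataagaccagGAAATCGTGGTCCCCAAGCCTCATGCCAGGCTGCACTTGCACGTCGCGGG
Pdcd1lg2: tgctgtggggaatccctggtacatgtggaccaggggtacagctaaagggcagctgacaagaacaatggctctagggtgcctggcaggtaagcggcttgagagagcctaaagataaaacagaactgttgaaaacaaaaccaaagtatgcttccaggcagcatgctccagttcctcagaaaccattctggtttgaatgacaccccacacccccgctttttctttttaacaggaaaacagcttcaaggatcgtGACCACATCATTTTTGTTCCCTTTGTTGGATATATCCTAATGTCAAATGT
Icosl: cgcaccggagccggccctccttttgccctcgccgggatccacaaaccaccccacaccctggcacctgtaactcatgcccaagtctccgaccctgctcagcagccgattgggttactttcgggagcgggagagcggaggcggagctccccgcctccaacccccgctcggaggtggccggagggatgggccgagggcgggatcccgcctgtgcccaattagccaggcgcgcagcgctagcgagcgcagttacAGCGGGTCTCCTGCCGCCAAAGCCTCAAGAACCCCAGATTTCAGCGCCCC
Of the bases, 52.7% were G or C in the window of Cd274, 46.0% in that of Pdcd1lg2 and 68.0% in that of Icosl, beside a median of 52.7% over all 32851 RefSeq windows. The CG dinucleotide occurred 15 times in the window of Cd274, 3 times in that of Pdcd1lg2 and 26 times in that of Icosl, beside a median of 7 over all windows. The AP-1 motif TGANTCA, searched on both strands, was found in the window of Cd80 alone among the 5 members and in 7.81% of all windows, which is a match of letters only.

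Levels are given as UMIs per 1000000 UMIs (CPM) of the summed cells of a class, replicate 1 first. They are compared between classes for 1 gene at a time, not between genes. Mature DCs ranked first for 6 of the 9 members by mean CPM, macrophages for Cd86, DCIR2 cDC2s for Pdcd1lg2 and pDCs for Tnfsf9. In the edgeR test of all 36 pairs of classes, 28.8% of gene-by-pair tests passed an adjusted p of 0.05, with 5.46% to 50.8% of genes called per pair. Of the 72 pairs of neighbours in the members' orders, 17 differed, so most orders are firm between distant classes rather than between neighbours. The plot of members by class shows all 18 sums per gene.

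**Figure D1:**
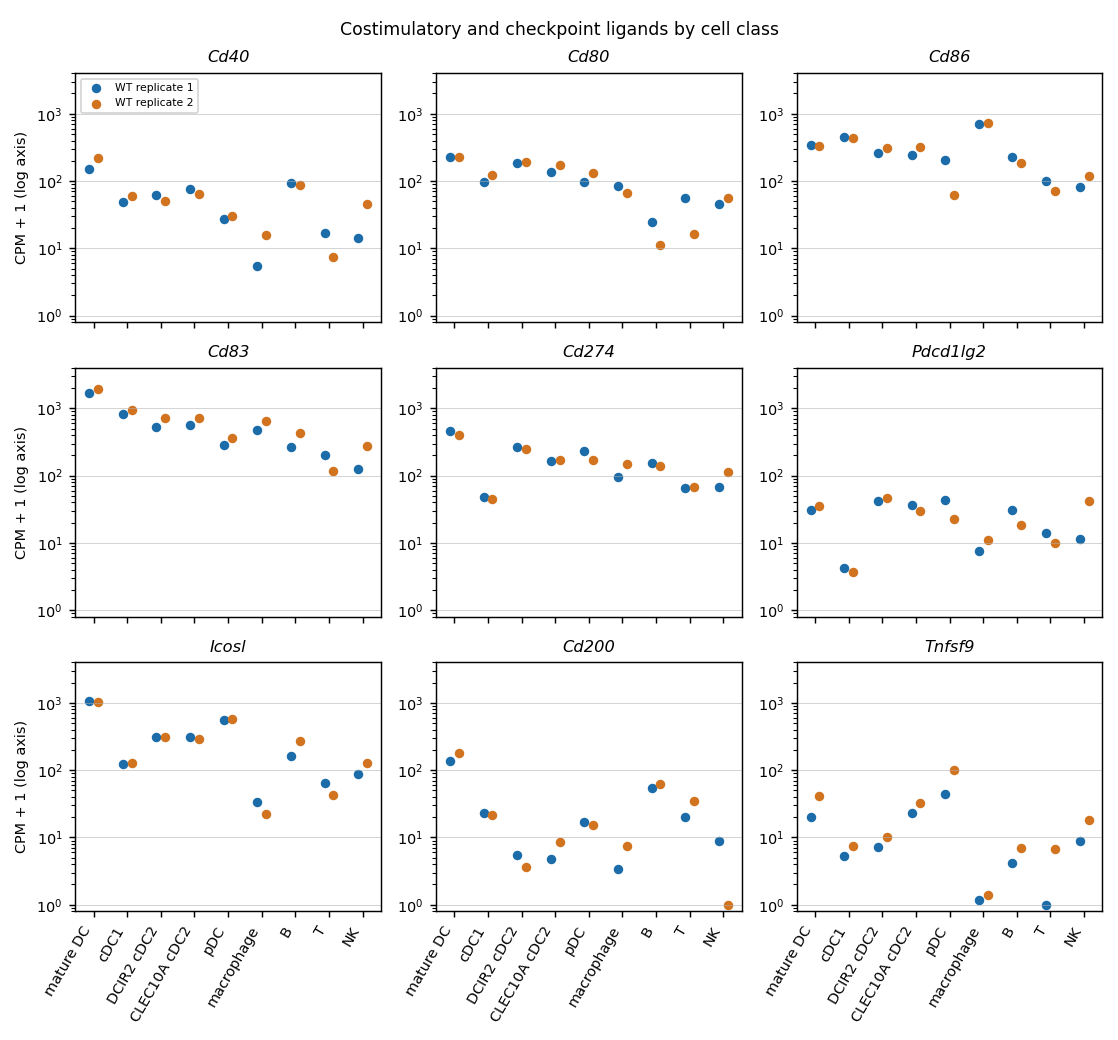
Levels of the 9 ligand genes, as CPM + 1 on a log axis, in the summed cells of each of the 9 classes. The 2 points of a class are replicates 1 and 2. Mature DCs rank first for 6 members, macrophages for Cd86, DCIR2 cDC2s for Pdcd1lg2 and pDCs, a class of 13 and 19 cells, for Tnfsf9.

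Among the ligands of CD28 and its relatives, Icosl separated the classes most, with 33 of 36 pairs different. Its level was 1061 and 1019 CPM in mature DCs, 560 and 571 in pDCs, 312 and 307 in DCIR2 cDC2s, 307 and 293 in CLEC10A cDC2s, 124 and 127 in cDC1s and 32.5 and 21.6 in macrophages. Mature DCs stood above all 8 other classes and pDCs above 7, and no replicate of another class reached the values of either. Cd80, whose product was first described on activated B cells, had its lowest mean in B cells here, at 23.5 and 10.3 CPM. It reached 224 and 226 in mature DCs, 183 and 191 in DCIR2 cDC2s and 84.6 and 65.3 in macrophages. Mature DCs were above 7 of the other 8 classes, the exception being DCIR2 cDC2s. Cd86 had another order. It was highest in macrophages at 714 and 728 CPM, above all 8 other classes, followed by cDC1s at 450 and 438, mature DCs at 337 and 325, CLEC10A cDC2s at 243 and 322, DCIR2 cDC2s at 259 and 305 and B cells at 223 and 187.

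Both ligands of PD-1 had their lowest mean in cDC1s. Cd274 was 457 and 401 CPM in mature DCs, 264 and 244 in DCIR2 cDC2s, 165 and 171 in CLEC10A cDC2s and 93.5 and 147 in macrophages, and cDC1s came last with 47.1 and 43.3. By the edgeR test of pairs, cDC1s were below 6 of the other 8 classes for Cd274. They were not shown to differ from T cells (adjusted p = 0.431). Pdcd1lg2 was sparse throughout, with 986 and 917 UMIs in all kept cells. It was 41.6 and 45.3 CPM in DCIR2 cDC2s, 35.3 and 28.8 in CLEC10A cDC2s, 29.6 and 34.5 in mature DCs and 3.16 and 2.71 in cDC1s, which were below all 8 other classes. Across the 18 sums, log2 levels of Cd274 and Pdcd1lg2 had a Pearson r of 0.82, the highest of any pair of members, and Cd86 and Tnfsf9 the lowest at -0.32. These sums share 2 libraries and their depth, so the values are a description.

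Cd40 was 151 and 218 CPM in mature DCs and 92.6 and 86.3 in B cells, the other class known for this receptor. It lay between 47.5 and 75.4 in the 3 cDC classes and was 4.52 and 14.7 in macrophages. Mature DCs were above all 8 other classes for Cd40, as they were for Cd83 (1698 and 1910 CPM), Cd274, Icosl and Cd200. For Cd83, cDC1s came next at 810 and 930, and T cells had 199.7 and 115. Cd200 was 134 and 177 CPM in mature DCs, 53.4 and 61.2 in B cells, 22.1 and 20.4 in cDC1s and 19.3 and 33.4 in T cells, and at most 7.48 CPM in the cDC2 classes. Tnfsf9 rested on few molecules. In pDCs its 42.6 and 101 CPM stood for 8 and 28 UMIs, in mature DCs it was 18.9 and 40.0 CPM, in CLEC10A cDC2s 22.0 and 31.6, and in macrophages 1 UMI per replicate.

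The comparison of mature DCs with the mean of the 3 cDC classes asked which ligands go with the Ccr7 state. Of the 9 members, 8 were higher in mature DCs and 0 lower, where 17.5% of the 11903 genes tested were higher and 15.9% lower, 33.4% in all. Cd200 had the largest difference, 4.40 ± 0.21 on the log2 scale (SE) or 21.2-fold (adjusted p = 2.08e-12). It was followed by Icosl (2.23 ± 0.13, adjusted p = 3.10e-11), Cd274 (1.82 ± 0.13, adjusted p = 9.49e-10) and Cd40 (1.69 ± 0.20, adjusted p = 1.53e-06), differences of 3.22-fold to 4.70-fold. Tnfsf9 (1.59 ± 0.31, adjusted p = 0.000559) and Cd83 (1.39 ± 0.18, adjusted p = 6.28e-06) were also higher. So were Pdcd1lg2 (1.04 ± 0.24, adjusted p = 0.00189) and Cd80 (0.66 ± 0.17, adjusted p = 0.00641), though by less. Cd86, whose product is widely used as a maturation marker, differed by 0.05 ± 0.17 (adjusted p = 0.870), with a 95% interval from -0.28 to 0.37. All 9 differences are shown in the plot of log2 differences.

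The mean of the cDC classes hid contrasts among them. Against DCIR2 cDC2s alone, where 26.2% of genes passed, Pdcd1lg2 in mature DCs differed by -0.30 (adjusted p = 0.451) and Cd80 by 0.40 (adjusted p = 0.194). Pdcd1lg2 differed by 0.06 from CLEC10A cDC2s (adjusted p = 0.908), so its call against the cDC mean came from its low level in cDC1s. Tnfsf9 in mature DCs differed by 0.22 from CLEC10A cDC2s (adjusted p = 0.715), so its call against the cDC mean does not extend to that class. The small difference of Cd86 from the cDC mean averaged classes above and below mature DCs. Cd86 was higher by 0.50 in cDC1s than in mature DCs (adjusted p = 0.0511). In mature DCs it was higher by 0.28 than in CLEC10A cDC2s (adjusted p = 0.346). Cd200 was 22.1 and 20.4 CPM in cDC1s and at most 7.48 in the cDC2 classes, so its difference from the cDC mean overstates that from cDC1s. T-cell markers summed to 298 and 347 CPM in mature DCs and to 11.9 to 65.7 in the cDC classes, with all 8 markers present. B-cell markers summed to 68.7 and 204 CPM in mature DCs and to 56.0 to 114 in the cDC classes. Their part in the differences was not tested.

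**Figure D2:**
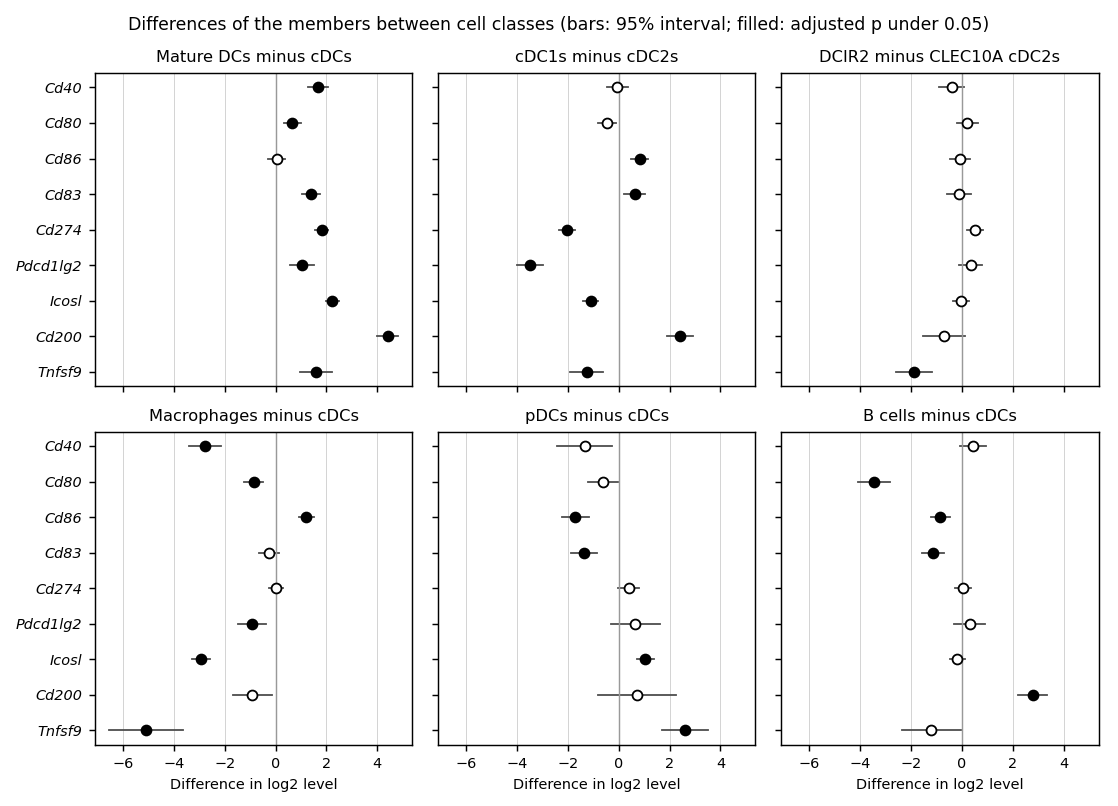
Log2 differences of the 9 ligand genes in the comparisons between cell classes, with 95% intervals as bars, from the edgeR fit over 18 sums. Filled points passed an adjusted p of 0.05, and the point of Tnfsf9 in macrophages is a fitted value over 2 UMIs. Mature DCs differ from cDCs by 4.40 for Cd200 and 0.05 for Cd86, and macrophages from cDCs by 1.21 for Cd86 and -2.93 for Icosl.

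Single cells were compared after each was thinned to 3000 UMIs, since classes differed in depth. At this depth a mature DC held a mean of 3.81 and 4.01 of the 9 members, against 2.72 and 2.85 in DCIR2 cDC2s, 2.43 and 2.66 in CLEC10A cDC2s, 2.15 and 2.34 in cDC1s, 1.95 and 2.10 in macrophages and 0.659 and 0.604 in T cells. Cells with at least 4 members made up 59.4% and 66.3% of mature DCs, 27.2% and 29.7% of DCIR2 cDC2s, 12.1% and 15.3% of cDC1s and 5.12% and 6.92% of macrophages. At most 1 cell per class and replicate was too shallow and was left out. Without thinning, the means were 5.41 and 5.50 in mature DCs and 1.17 and 1.11 in T cells, and 1 cell, a mature DC of replicate 2, held all 9. The distribution for each class is in the plot of members per cell.

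**Figure D3:**
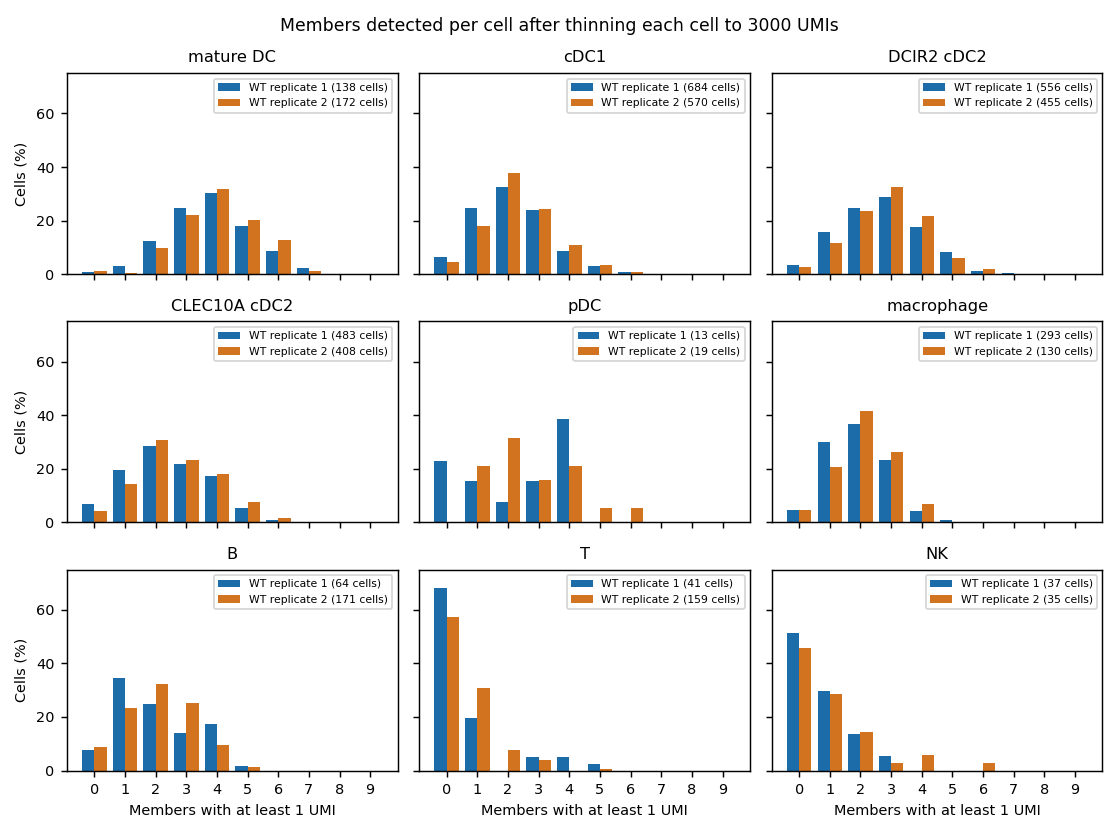
Percentage of cells of each class with a given number of the 9 ligand genes detected after thinning to 3000 UMIs, for both replicates. Mature DCs are shifted to higher numbers, with 59.4% and 66.3% of cells at 4 or more.

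The shares in T cells are given beside the others for comparison, and were not established as a background. T cells held 19.3 and 33.4 CPM of Cd200 and stood above 4 of the other 8 classes for it. They also held 64.4 and 67.6 CPM of Cd274, beside 47.1 and 43.3 in cDC1s. Icosl was found in 83.3% (95% exact binomial interval 76.0 to 89.1) and 87.2% (81.3 to 91.8) of thinned mature DCs and in 9.76% and 8.81% of T cells. For Cd40 the shares were 29.0% and 33.7% in mature DCs and 2.44% and 1.26% in T cells, and for Cd200 23.2% and 27.3% against 2.44% and 4.40%. Cd86 was found in 82.3% and 79.2% of macrophages, 43.5% and 48.3% of mature DCs and 12.2% and 11.9% of T cells. These intervals cover counting error only. Before thinning, Icosl was found in 97.1% and 95.4% of mature DCs and Cd200 in 36.2% and 42.8%. A UMI of Cd200 was thus found in a minority of mature DCs, and the tenth of cells with most Cd200 held 64.2% and 55.5% of its UMIs, against 27.1% and 26.8% for Icosl.

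Between cDC1s and cDC2s, the question was which ligands differ between DCs known for priming CD8+ and CD4+ T cells. In this contrast 18.6% of genes were higher in cDC1s and 17.3% lower, 35.9% in all, and of the members 3 were higher and 4 lower. Pdcd1lg2 was 11.2-fold lower in cDC1s (-3.48 ± 0.26, adjusted p = 1.24e-09) and Cd274 4.05-fold lower (-2.02 ± 0.16, adjusted p = 3.03e-09), so both ligands of PD-1 were on the cDC2 side. Icosl (-1.11 ± 0.15, adjusted p = 6.43e-06) and Tnfsf9 (-1.26 ± 0.33, adjusted p = 0.00479) were lower as well. Cd200 (2.41 ± 0.25, adjusted p = 2.00e-07) and Cd86 (0.83 ± 0.16, adjusted p = 0.000471) were higher in cDC1s. Cd83 was higher by 0.62 ± 0.20 (adjusted p = 0.0207), a call lost with DESeq2 (adjusted p = 0.105) and with doubled UMI minimums in the cell rules (adjusted p = 0.0949). Cd80 differed by -0.45 ± 0.18 (adjusted p = 0.0607) and stood close to the threshold. It passed as lower in cDC1s under 8 of 9 alternatives, with adjusted p from 0.00628 (a fit of only the classes compared) to 0.0424 (RLE size factors) and 0.0135 with the sample as a block, and missed it with DESeq2 (adjusted p = 0.219). Cd40 differed by -0.05 ± 0.22 (adjusted p = 0.885), with an interval from -0.47 to 0.37.

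Between both cDC2 classes, 5.46% of genes passed, 1.76% higher and 3.7% lower in DCIR2 cDC2s. Of the DCIR2 cDC2s, 209 of 556 and 156 of 456 also met the CLEC10A rule, which came last in the order. The member that passed was Tnfsf9, 6.22 and 9.16 CPM in DCIR2 cDC2s and 22.0 and 31.6 in CLEC10A cDC2s, a difference of -1.88 ± 0.37 (adjusted p = 0.00340). Cd274 differed by 0.52 ± 0.17 (adjusted p = 0.0767). It passed as higher in DCIR2 cDC2s under 4 of 9 alternatives, with all deposited cells, after thinning, without the filter on low counts and in a fit of both classes alone (adjusted p from 0.000906 to 0.0398). The other 7 members differed by between -0.70 and 0.36, with adjusted p from 0.466 to 0.974.

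Macrophages were next compared with the cDC classes. Of the members, 1 was higher and 5 were lower in macrophages, where 27.7% of all genes were higher and 26.1% lower, 53.8% in all. Cd86 was 2.32-fold higher (1.21 ± 0.15, adjusted p = 9.66e-07). Icosl was 7.61-fold lower (-2.93 ± 0.18, adjusted p = 2.97e-11) and Cd40 6.88-fold lower (-2.78 ± 0.32, adjusted p = 2.58e-07), the latter with 25 and 36 UMIs in the class and replicate differences of -3.53 and -1.98. Cd80 (-0.87 ± 0.19, adjusted p = 0.000659) and Pdcd1lg2 (-0.93 ± 0.27, adjusted p = 0.00692, and 0.110 after thinning) were lower too, Cd80 by -0.51 in replicate 1 and -1.33 in replicate 2. The fifth was Tnfsf9, with 2 UMIs among 7982482 in macrophages and 499 among 48467654 in the cDC classes, a ratio of 0.0243 with a counting interval from 0.00294 to 0.0884. Cd274 differed by 0.01 ± 0.14 (adjusted p = 0.985), Cd83 by -0.25 ± 0.20 (adjusted p = 0.314) and Cd200 by -0.92 ± 0.39 (adjusted p = 0.0528). Cd200 passed as lower with cells that met 1 rule (-1.22, adjusted p = 0.0224), with doubled UMI minimums (-1.72, adjusted p = 0.00231) and without the filter on low counts (-0.88, adjusted p = 0.0368). With all deposited cells it passed as higher, at 1.71 (adjusted p = 1.9e-05), so its direction depended on the cell filter. Erythroid markers summed to 3742 and 914 CPM in macrophages and 13.4 to 72.5 in the cDC classes, with all 5 present, and B-cell markers to 714 and 579 against 56.0 to 114. Their part in these differences was not tested.

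Within macrophages, marginal metallophilic macrophages (MMMs), taken as cells with at least 1 UMI of Siglec1, the gene of CD169, were compared with Siglec1-negative cells. They numbered 112 and 56 cells, against 181 and 74. Of the 7 members tested 0 were called, and 0.021% of genes passed, 2 of 9528 with edgeR and 1 with DESeq2, although 347 had an unadjusted p under 0.05. Cd86 was 713 and 785 CPM in MMMs and 714 and 681 in the others, a difference of 0.09 ± 0.11 with an interval from -0.12 to 0.30. Cd80 was 89.8 and 79.2 CPM against 80.9 and 53.9. Cd274 was 80.7 and 148 CPM against 103 and 146, with the replicates further apart than the groups. Cd200, at 1 and 3 UMIs in MMMs and 12 and 13 in the others, and Tnfsf9 were too rare to be tested. A cell without a Siglec1 UMI is not shown to lack the transcript at this depth, and 1 UMI does not establish an MMM. The filter on quality had removed every cell of the macrophage rule with at least 10 Siglec1 UMIs, so the split ran without them. With all deposited cells, 0 of 8 members tested passed. Macrophage markers, among them Cd5l, Hmox1 and Spic, summed to 26840 and 25330 CPM in MMMs and 26087 and 23446 in the others. The name MMM thus stands for the Siglec1 cut and not for a marker profile. Erythroid markers summed to 5146 and 1911 CPM in MMMs and 2739 and 106 in Siglec1-negative cells.

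Langerin+ cDC1s, the marginal zone subset that the study turned on, were taken here as cDC1s with at least 1 UMI of Cd207. They numbered 116 and 113 cells, of which 63 and 66 had at least 2 UMIs, against 568 and 457 Langerin- cDC1s. Their median depth was 22445 and 23444 UMIs, against 19023.5 and 20248. At this depth 1 UMI does not establish a Langerin+ cell, and a cell without one is not shown to lack the transcript. The place of these cells in the spleen was not measured. With 0.85% of genes called (94 of 11054, and 99 with DESeq2), 0 members passed, and 1335 genes had an unadjusted p under 0.05. With the sample as a block 5.94% of genes and 4 of the 9 members passed, all higher in Langerin+ cDC1s. Cd86 was 495 and 480 CPM in Langerin+ and 440 and 426 in Langerin- cDC1s, higher in both replicates and by 0.26 ± 0.06 (adjusted p = 0.103, and 0.000209 with the block). Cd40 was 57.7 and 70.1 against 45.2 and 55.9 CPM (0.43 ± 0.15, adjusted p = 0.289, and 0.0284 with the block). Cd80 was 141 and 120 CPM against 86.0 and 124, and Cd83 was 1012 and 905 against 764 and 938. For both, replicate 1 alone gave the difference, which was 0.77 and -0.0005 for Cd80 and 0.46 and 0.0006 for Cd83 in replicates 1 and 2. The 0.000649 for Cd80 and 1.39e-07 for Cd83 that the block gave as adjusted p therefore stood beside a difference near 0 in replicate 2. Cd274, at 41.0 and 38.7 CPM in Langerin+ and 48.5 and 44.7 in Langerin- cDC1s, differed by -0.13 ± 0.13 (adjusted p = 0.755). Erythroid markers summed to 296 and 18.8 CPM in Langerin+ and 21.6 and 11.8 in Langerin- cDC1s.

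In pDCs, against cDCs, 2 members were higher and 2 lower, where 4.55% of genes were higher and 6.69% lower, 11.2% in all. Icosl was 2.07-fold higher (1.05 ± 0.16, adjusted p = 0.000213). Tnfsf9 was higher by 2.62 ± 0.46 (adjusted p = 0.000722), with replicate differences of 1.94 and 2.75, and Cd86 (-1.70 ± 0.27, adjusted p = 0.000284) and Cd83 (-1.36 ± 0.27, adjusted p = 0.00188) were lower. Cd86 was 203 CPM in replicate 1 and 61.4 in replicate 2, so that its difference was -0.97 and -2.77 in turn, a wide spread in a class this small. With only the cells that met 1 rule, which left 4 and 7 pDCs, Tnfsf9 (2.52, adjusted p = 0.0720) and Cd83 (-0.85, adjusted p = 0.136) lost their calls. Cd40 passed as lower without the filter on low counts (-1.41, adjusted p = 0.0104) and Cd80 with doubled UMI minimums (-1.20, adjusted p = 0.0472), against -1.34 (adjusted p = 0.143) and -0.61 (adjusted p = 0.235) as fitted. The median gene differed by -0.24 on the log2 scale, and the calls split 541 higher to 796 lower, against 658 to 463 with RLE size factors and 1011 to 535 with DESeq2.

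B cells differed from cDCs by 1 member higher and 3 lower, where 16.6% of genes were higher and 19.7% lower, 36.3% in all. Cd200 was 6.91-fold higher (2.79 ± 0.29, adjusted p = 1.46e-07). Cd80 was lower (-3.46 ± 0.33 on the log2 scale, adjusted p = 4.75e-08), with -2.64 and -4.17 in the replicates, and Cd83 (-1.15 ± 0.22, adjusted p = 0.000378) and Cd86 (-0.85 ± 0.19, adjusted p = 0.00138) were lower. Cd40 (0.43 ± 0.26, adjusted p = 0.205), Cd274 and Icosl did not pass, though Cd40 did after thinning, as higher (0.72, adjusted p = 0.0220). Tnfsf9, at 3.14 and 5.90 CPM in B cells, differed by -1.19 ± 0.60 (adjusted p = 0.131, and 0.0185 with the sample as a block).

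Mature DCs were split by 2 of their products, the p40 chain gene Il12b and the chemokine gene Ccl22. Cells with at least 1 UMI of either gene numbered 33 and 56, and cells with neither 105 and 117. Of the members 4 were higher in the first group and 0 lower, where 10.3% of genes were higher and 7.35% lower, 17.7% in all. The calls over all genes split 843 to 600, against 595 to 268 with DESeq2. Cd40 was 288 and 394 CPM in cells with Il12b or Ccl22 and 104 and 126 in the others, 3.55-fold higher (1.83 ± 0.20, adjusted p = 0.000214). Cd200 was 234 and 307 against 99.7 and 110 CPM, 3.09-fold higher (1.63 ± 0.20, adjusted p = 0.000333). The groups did not overlap for either gene, nor for Cd83 and Icosl, nor in the other direction for Cd80 and Pdcd1lg2. The share of all genes that separate in this way was not counted, so the separation is not read as a result. Cd83 was 2314 and 2294 against 1489 and 1710 CPM (0.77 ± 0.12, adjusted p = 0.00123, and 0.0518 after thinning), and Icosl was 1419 and 1129 against 939 and 961 (0.67 ± 0.14, adjusted p = 0.00728, and 0.0632 with cells that met 1 rule).

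The other 5 members did not pass. Cd80 was 159 and 159 CPM in cells with Il12b or Ccl22 and 247 and 261 in the others, and differed by -0.43 ± 0.17 (adjusted p = 0.116). With at least 2 UMIs of either gene it passed, at -0.62 (adjusted p = 0.0345). Cd86 moved in opposite directions in the replicates, by 0.44 and -0.44. Cd274 was 383 and 432 CPM against 482 and 385, with overlap. Its fitted difference after TMM scaling was 0.16 ± 0.16 (adjusted p = 0.554), opposite in sign to the means of these CPM, 407 and 434, and was -0.16 and 0.40 in the replicates. Pdcd1lg2 rested on 5 and 17 UMIs in the first group and differed by -0.68 ± 0.42 (adjusted p = 0.315). Genes of the cell cycle summed to 67.1 and 34.9 CPM in the first group and 254 and 338 in the second, and CLEC10A cDC2 markers to 261 and 285 against 608 and 1055. Their part was not tested.

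**Figure D4:**
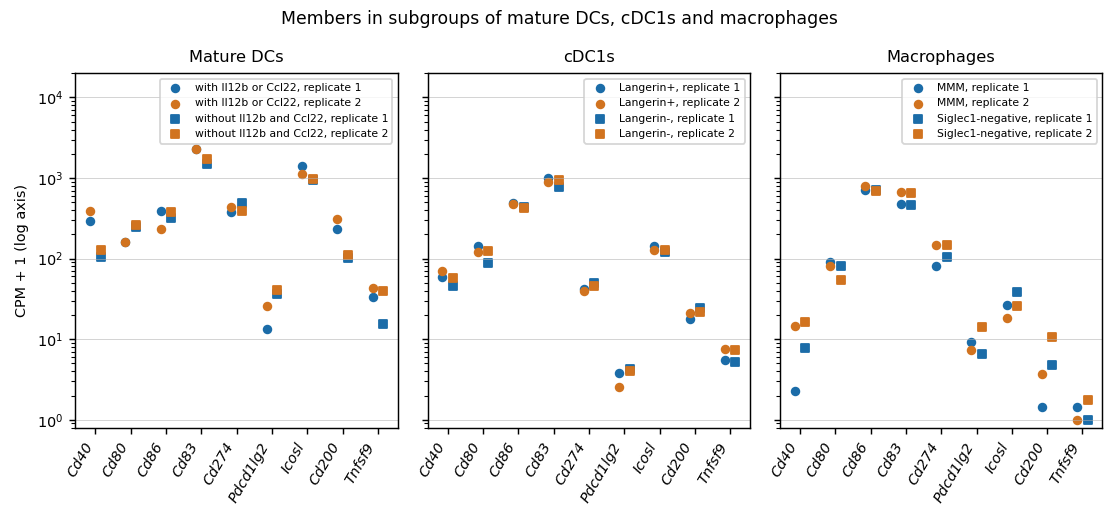
Levels of the 9 ligand genes, as CPM + 1 on a log axis, within cDC1s by Cd207, within macrophages by Siglec1 and within mature DCs by Il12b or Ccl22. Points are replicates 1 and 2. Cd40 and Cd200 are higher in mature DCs with than without Il12b or Ccl22 in both replicates, while Cd274 differs in direction between replicates.

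Receptors for these ligands were present in the same fraction. Cd28 was 155 and 223 CPM in T cells, and Cd40lg, the ligand of CD40, was 54.7 and 59.5 CPM there and at most 3 UMIs in any other class of a replicate. Pdcd1, which encodes PD-1, gave 2 and 14 UMIs in T cells, so its level there, 6.44 and 11.4 CPM, was close to what this depth can show. Tnfrsf9, which encodes 4-1BB, was 71.6 and 132 CPM in NK cells, 48.3 and 61.1 in T cells and 24.6 and 45.0 in mature DCs. Cd200r1 was 81.0 and 68.1 CPM in macrophages, 53.3 and 130 in pDCs and 44.7 and 50.9 in CLEC10A cDC2s. Icos was 152 and 132 CPM in mature DCs and 113 and 176 in T cells, so the mature DC sums held the transcripts of both ICOS and its ligand. T-cell markers summed to 298 and 347 CPM in mature DCs and to 4982 and 5395 in T cells. Ctla4 lay between 32.4 and 193 CPM in every class.

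**Figure D5:**
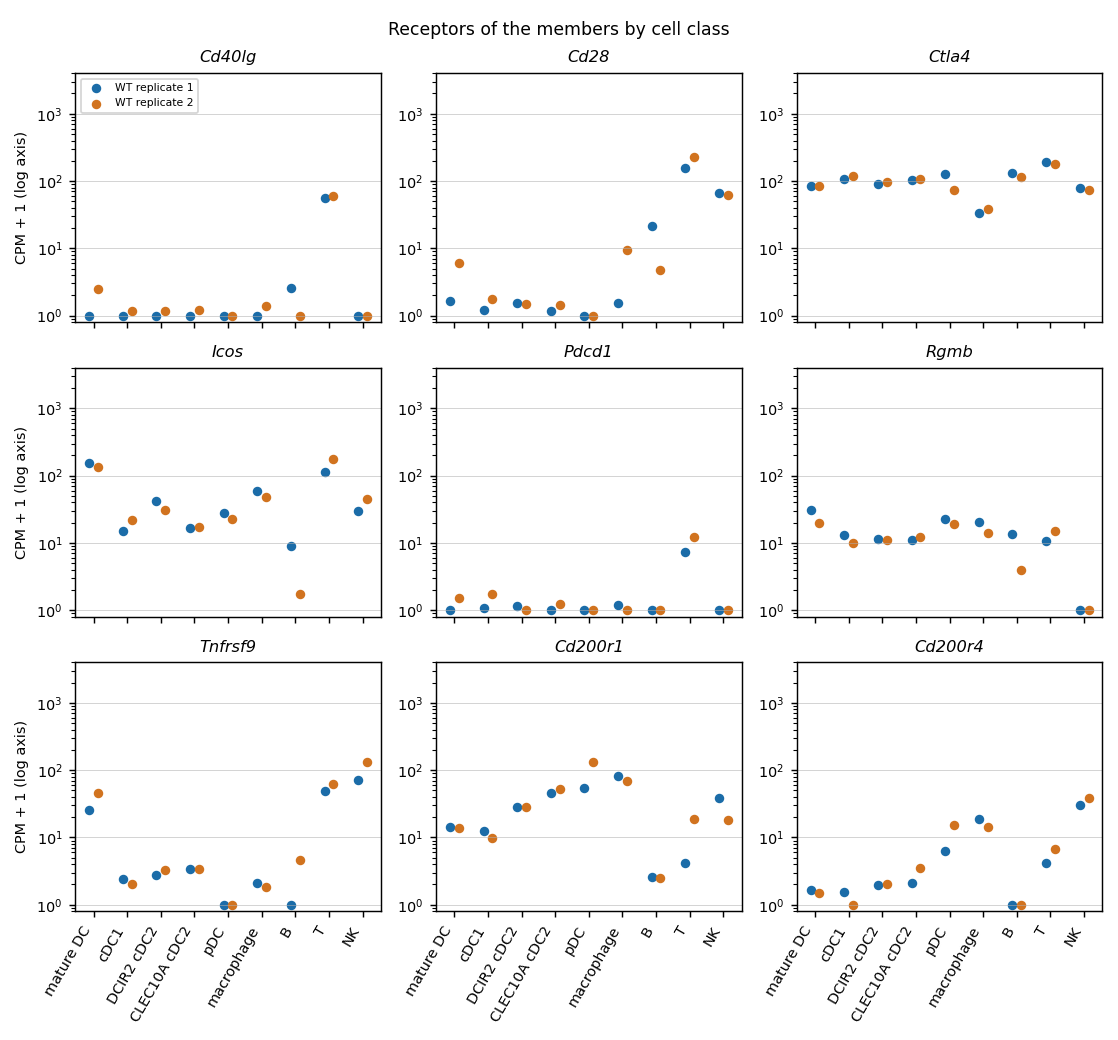
Levels of 9 receptor genes of the ligands, as CPM + 1 on a log axis, by cell class, with points for replicates 1 and 2. Cd28 and Cd40lg stand out in T cells, Tnfrsf9 in NK cells and Icos in mature DCs and T cells.

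Against cDCs, mature DCs were higher for Tnfrsf9 (4.29), Icos (2.75) and Rgmb (1.25, a receptor of PD-L2) and lower for Cd200r1 (-0.81) on the log2 scale, 3 higher and 1 lower of 9 receptors. Macrophages were higher for 5, with Cd200r4 (4.34), Cd28 (2.97), Cd200r1 (1.75), Icos (1.37) and Rgmb (0.78), and lower for Ctla4 (-1.50). Cd28 there stood at 0.542 and 8.56 CPM, with differences of 0.62 and 3.33 in replicates 1 and 2. cDC1s were higher than cDC2s for Ctla4 (0.37) and lower for Cd200r4 (-1.98) and Cd200r1 (-1.63). DCIR2 cDC2s were higher than CLEC10A cDC2s for Icos (1.06) and lower for Cd200r1 (-0.90). Counts of calls were 2 higher and 0 lower in pDCs and 1 higher and 2 lower in B cells, against cDCs. Of the mature DCs, those with Il12b or Ccl22 were higher for Icos (1.57), the 1 call among 5 receptors tested. No receptor was called between Langerin+ and Langerin- cDC1s (4 tested) or between MMMs and Siglec1-negative macrophages (6 tested).

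Of 26 further costimulatory and checkpoint genes, 20 could be tested in the fit of classes. In mature DCs against cDCs 8 were higher and 4 lower, with a median log2 difference of 0.51 beside -0.05 over all genes. Fas, a death receptor (5.22), Slamf1 (3.22), Pvr, a ligand of DNAM-1 and TIGIT (2.74), Il15, a cytokine that sustains NK and memory T cells (2.74), and Tnfsf15 (1.72) led the higher ones. Tnfsf14 (-1.76), Lgals9 (-1.35), Cd48 (-0.87) and Vsir (-0.81) were lower. cDC1s were higher than cDC2s for 6 and lower for 7, led by Btla (2.79) and Fas (2.35) and by Sirpa, whose product signals on binding CD47 (-4.17), and Tnfsf8 (-3.64). Macrophages were higher than cDCs for 11 and lower for 5, led by Tnfsf18, which encodes GITRL (6.07), and Sirpa (3.30), and by Tnfsf14 (-4.48) and Btla (-3.90). The counts were 2 higher and 3 lower in pDCs, and 6 and 9 in B cells. DCIR2 cDC2s were lower than CLEC10A cDC2s for Pvr (-1.71) and Il15 (-1.29) and higher for 0. Langerin+ cDC1s were lower for Sirpa (-2.05) among 15 tested, and in MMMs 0 of 14 passed. Of 13 tested in the split of mature DCs, Pvr (3.31), Il15 (2.49), Fas (1.69) and Icam1 (0.77) were higher with Il12b or Ccl22, and Sirpa (-1.91) and Cd48 (-1.02) lower.

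Genes of DC maturation were chosen as genes that mark mature DCs, so their direction in that class is no independent evidence. In mature DCs 20 of 22 were higher and 0 lower, with Cacnb3 (7.42), Socs2 (7.24), Cd63 (6.26), Ccl22 (5.77) and Tnfrsf4 (5.13) at the top. In the split of mature DCs 15 of 20 were higher with Il12b or Ccl22 and 2 lower, Irf4 (-0.98) and Nfkb1 (-0.64). In cDC1s against cDC2s 6 were higher and 11 lower, among them Il12b (3.56) and Irf4 (-3.89). Macrophages had 5 higher and 9 lower, pDCs 6 and 1, and B cells 3 and 6. Langerin+ cDC1s were lower for Cacnb3 (-2.58), and 0 of 22 passed between the cDC2 classes and 0 of 17 between MMMs and the other macrophages.

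The 16 genes of CD40 and NF-kB signalling, the pathway through which CD40 acts, were all tested. In mature DCs 13 were higher and 0 lower, with a median of 1.28 beside -0.05 over all genes. Bcl2l1, which encodes the survival protein BCL-XL (3.07), Nfkbia (1.59), Bcl3 (1.52), the CD40 adaptor Traf6 (1.49) and Bcl2a1b (1.49) led. Bcl2l1 (2.52), Traf6 (1.22) and Map3k14, which encodes NIK (1.00), were also higher in mature DCs with Il12b or Ccl22, where 9 were higher and 0 lower. In cDC1s 1 was higher, Chuk (0.44), and 10 were lower than in cDC2s, led by Bcl3 (-2.28), Tnfaip3 (-1.19), Traf2 (-1.13) and Rel (-1.02). Macrophages had 4 higher and 7 lower, pDCs 2 and 2, and B cells 3 and 6. In the other 3 comparisons 0 of 16 passed.

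For each member, the genes most like it across the 18 sums were found by the Pearson r of log2 CPM over 8782 genes with at least 20 CPM in both replicates of a class. These are descriptions over sums that share 2 libraries. They were Trim7 (0.89) for Cd40, Grk3 (0.96) for Cd80, Tns3 (0.91) for Cd86, Clic4 (0.92) for Cd83, Zbtb18 (0.91) for Cd274, Elk3 (0.89) for Pdcd1lg2, Slc44a1 (0.95) for Icosl, Mdm2 (0.77) for Cd200 and Gm11110 (0.90) for Tnfsf9. Next came Gemin7 and Ncf1, Avpi1 and Slc46a3, Bco2 and Smagp, Rnf19b and Lpcat1, Chka and Il4i1, St8sia6 and Man1a, Uvrag and Polb, Nid1 and Gclc, and Mier3 and Ankrd13a, in the same order of members. Gm11110 is the gene that overlaps Tnfsf9 on the other strand, and reads of the pair cannot be told apart.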

How the data were processed

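Splenic CD11c+ cells of 2 wild-type samples were measured by scRNA-Seq. The authors deposited UMI counts per cell and gene, not normalized, from the BD Rhapsody WTA Analysis Pipeline 1.12.1 (GRCm38 plus PhiX, GENCODE vM19). Reads in introns were included, cell calling was refined, and UMI substitution errors had been corrected. The submitters' processing notes also name R 4.2.3 and Seurat 4.3.0.1. The depth was 46953398 and 43137746 UMIs. The intervals of shares of cells and of the Tnfsf9 ratio cover counting error only.

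Cells with at least 200 genes within the mean ± 3 median absolute deviations of mitochondrial percentage, genes and UMIs were kept (genes in at least 3 cells), which removed 380 and 360 cells. The filter met classes unequally. It removed 65 and 31 macrophages beside 293 and 130 kept, and 113 and 140 cDC1s beside 684 and 570 kept. Of DCIR2 cDC2s it removed 9 and 10 beside 556 and 456 kept. The tables share 0 cell indices. Classes were set by UMI minimums, first match (Vcam1 20 with C1qb 5, Ccr7 2 with Fscn1 1, Clec9a 2 with Xcr1 1, Siglech 3 with Ccr9 1, Cd79a 3, Cd3e 2, Ncr1 1, Clec4a4 2, Clec10a plus Cd209a 2). No doublet caller was run, and 324 and 286 kept cells met 2 or more rules. The alternative with cells of 1 rule does not replace one. Of the cells that it leaves out, 209 and 156 were DCIR2 cDC2s that also met the CLEC10A rule. Doublets with a cell that met no rule stay in. UMIs were summed per replicate and class and tested with edgeR 4.0.16 (quasi-likelihood, TMM, filterByExpr, Benjamini-Hochberg over all genes, threshold 0.05) in R 4.3.3 with limma 3.58.1. The fit of classes used 18 sums, and splits within a class used 4. The 14 rule genes and the genes that define a split were left out. SE is the log2 difference over the square root of F, and intervals of log2 differences are ±1.96 SE. This multiple makes no allowance for the few sums of a fit, so intervals may be too narrow, above all in splits with 4 sums. DESeq2 1.42.0 was an alternative. CPM used a pseudocount of 1 for correlations only. Python 3.11.15, numpy 2.4.6, pandas 2.3.3, scipy 1.17.1 and matplotlib 3.10.9 made tables and figures.

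Sums of a replicate come from the same sample, so replicates are paired by design. Their deviations from the class means had correlations from -0.0569 to 0.146 (median 0.0236, 39 pairs). Replicates differed beyond sampling noise in every class (chi-square per degree of freedom 2.49 to 6.68). On simulated data, of 100 genes changed 4-fold, 95 were recovered for mature DCs against cDCs (11903 genes), 95 for Langerin+ cDC1s (11054), 95 for MMMs (9528) and 92 for the mature DC split (8166). At 2-fold these were 78, 76, 60 and 49, with 9, 19, 10 and 13 false calls. The changed genes were drawn only from genes above a minimum mean count, with the spread of the fit itself and no replicate effect. The rates thus do not describe members with few UMIs, such as Cd40 with 3 and 15 in MMMs and 22 and 21 in Siglec1-negative macrophages.

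The members, the lists, the cell rules and the alternatives were chosen with earlier results of these data known. Named were all 9 members, up to 5 genes of each list per direction by size of difference with the same direction in both replicates, and 3 genes most like each member. Some genes that the rule allows are left to the counts.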

Additional observations from a re-analysis of the deposited data

How the results depend on the processing

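Of 677 values under the alternatives, 617 kept their direction and side of the threshold, 7 lost their call, 26 gained one and 27 changed sign. Of the calls in mature DCs against cDCs, all 8 and the missing call of Cd86 stood under every alternative. Genes called under the thinning to 3000 UMIs numbered 2618 for mature DCs (3976 without), 4249 for macrophages (6408), 371 for pDCs (1337), 56 for Langerin+ cDC1s (94) and 574 for the mature DC split (1443). Between the cDC2 classes 982 were called without the filter on low counts and 1773 in a fit of those classes alone (650), and 2 members in these fits, with all deposited cells and after thinning (1). With cells that met 1 rule 726 genes and 2 members were called in pDCs (1337 and 4) and 47 genes in Langerin+ cDC1s, where no low-count filter gave 442 genes and 2 members, Cd80 and Cd83, and at least 2 UMIs 48 genes. DESeq2 called 863 genes in the mature DC split. For MMMs (2) the counts were 1 with DESeq2, 74 without the filter, 12 with all deposited cells and 0 with cells of 1 rule or at least 2 UMIs. With the replicate block 657 genes and 4 members were called in Langerin+ cDC1s (94 and 0) and 42 genes in MMMs (2). It added Cd80 in cDC1s against cDC2s (adjusted p = 0.0135) and Tnfsf9 in B cells (adjusted p = 0.0185), and changed no other call of a member.

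Sign changes were of members without a call as reported, and their log2 differences follow. Cd40 was 0.013 in cDC1s with cells of 1 rule. Between the cDC2 classes Cd86 (0.021) and Icosl (0.0017) changed after thinning, Icosl (0.034) with cells of 1 rule and Cd200 (0.26) with doubled minimums. In macrophages Cd274 was -0.075, -0.073, -0.091 and -0.021 with cells of 1 rule, thinning, doubled minimums and only the classes compared, and Cd200 was 1.71 with all deposited cells. In pDCs Cd274 was -0.86 with doubled minimums and Pdcd1lg2 -1.03 after thinning. In B cells Cd274 was -0.039, -0.15 and -0.087 with cells of 1 rule, thinning and doubled minimums. In Langerin+ cDC1s Cd274 (0.039) and Tnfsf9 (-0.014) changed with all deposited cells and Pdcd1lg2 (0.052) with at least 2 UMIs. In MMMs Cd83 was -0.092 with all deposited cells and -0.089 with at least 2 UMIs, Cd274 0.057 with cells of 1 rule, and Pdcd1lg2 0.094 and 0.045 with all deposited cells and cells of 1 rule. In the mature DC split Cd86 was -0.021 after thinning, and Cd274 was -0.00090, -0.024 and -0.079 with all deposited cells, cells of 1 rule and thinning. Apart from the removed cells that account for Cd200, described under the other observations, the causes were not tested. Leaving out a replicate leaves the difference of the other with no test. Depth limited Tnfsf9, Pdcd1lg2 and Cd200 in small classes, where a few UMIs set the level.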

Other observations

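Cd200 in macrophages was set by a few cells that the filter removed. Kept macrophages held 13 and 16 Cd200 UMIs (2.35 and 6.53 CPM), and the 65 and 31 removed cells that met the macrophage rule held 202 and 29 (117 and 26.3 CPM). Of 260 Cd200 UMIs in all 519 such cells, 223 were in 6 cells with 18 to 67 each, 5 of replicate 1 and 1 of replicate 2. These 6 cells, chosen after their values were seen, held 36179 to 45123 UMIs each, and 5 of them had no Siglec1 UMI. Among the 5 cells of any class with at least 10 Siglec1 UMIs, 4 met the macrophage rule and were removed by the filter. The cell with most Siglec1 (48 UMIs) was also the one with 67 Cd200 UMIs, and a kept cell of the cDC1 rule held 34 Siglec1 and 23 Cd200 UMIs.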
